A study of Bos taurus with 3 samples.

Results

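The genes described here are the enzymes that carry glucose to pyruvate and lactate, the pyruvate dehydrogenase complex and its kinases, the pentose phosphate and glycogen enzymes, and the hypoxia-inducible factors (HIF) with genes known to be induced when oxygen is low. They were taken by symbol from a list of 48 genes, and 43 had a probe set carrying that single symbol in the platform annotation, out of 9155 genes named on the array. HK2, PDK1, VHL and GYS1 had no such probe set and were not analysed here, and neither was PKM2, an older symbol of the gene listed as PKM. Each gene was read by its probe set of highest mean over the arrays, and further probe sets are given where a gene had them.

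RNA was taken from 3 cultures, each hybridized to 1 Affymetrix GeneChip Bovine Genome Array. Of these cultures 2 were clonally enriched isolates of Gonadal Ridge Epithelial-Like (GREL) cells, polygonal cells grown from bovine (Bos taurus) fetal ovaries and labelled 130 days of gestation, and 1 was of ovarian fibroblastic cells of an adult cow, grown out of the medulla, labelled over 1 year of age. According to the labels all were grown in DMEM/F12 with 5% fetal calf serum in air with 5% CO2, held at 39°C, up to 70% confluence. No culture was labelled as treated or as kept at low oxygen. The comparison asks which genes differ between GREL cells and fibroblasts, and in it cell type, donor and fetal or adult age cannot be told apart.

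Glycolysis splits glucose into pyruvate, which is either reduced to lactate or passed into mitochondria by the pyruvate dehydrogenase complex. The pentose phosphate pathway branches off early to make NADPH and the ribose of nucleotides. The transcription factors HIF1A and EPAS1 pair with ARNT, are marked for breakdown by prolyl hydroxylases when oxygen is present, and when stable raise many glycolytic genes, VEGFA and mitophagy genes. Their control is largely at the protein level, which an RNA array does not read.

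The labels were set against cell type markers. Among all named genes 5.8% were over 2-fold higher in both isolates and 4.78% over 2-fold lower in both. Of 10 epithelial markers 6 were over 2-fold higher in both isolates, EZR, CDH3, KRT7, PKP2, STAR (steroidogenic acute regulatory protein) and KRT19. Of these, KRT7, PKP2, STAR and KRT19 stand in the paper's selected list of genes over 3-fold higher in GREL cells. That list was drawn from these same arrays, so its genes do not test the labels. KRT19 read 7.1 (log2) in fibroblasts, 11.3 in isolate 1 and 11.6 in isolate 2. The epithelial adhesion genes EPCAM (1.0, 3.9 and 1.5 in the same order) and CDH1 (3.6, 4.7 and 3.2) did not exceed the background level, which is defined with the other markers, on any array. Of 13 stromal fibroblast markers 5 were over 2-fold lower in both isolates and 0 over 2-fold higher, although COL1A2 was still at 11.5 and 10.5 in the isolates, against 12.0. Of 9 granulosa cell markers 2 were over 2-fold lower, NR5A1 (5.6, 4.4 and 4.3) and HSD3B1 (3.2, 2.1 and 2.1), while FOXL2 read 1.8, 1.9 and 2.0. Of 7 endothelial markers 1, EMCN, was over 2-fold lower (4.7, 3.1 and 2.9), and VWF was at 1.8 on all 3 arrays. Of 6 germ cell markers 1, KIT, was over 2-fold lower (5.7, 1.5 and 2.7), and of 8 blood cell markers 0 were, with PTPRC at 2.1, 2.0 and 1.9. Of 6 smooth muscle markers 1, DES, was over 2-fold lower, with 9.5 in fibroblasts, 8.3 in isolate 1 and 8.1 in isolate 2. None of the measured granulosa cell, endothelial, germ cell and blood cell markers lay above the background level on any array. On every array 7866 of the 9155 named genes lay below that level, the epithelial markers KRT7 and PKP2 among them. That level was the 95th percentile of 61 measured genes of other organs, 8.1 on the fibroblast array, 7.6 on that of isolate 1 and 7.4 on that of isolate 2, and was raised by bright probe sets of POMC, APOA1, ALB and PRL. The 90th percentile of the same genes was 5.5, 5.4 and 5.3. INHBA, a granulosa cell marker, exceeded it on every array (6.4, 7.3 and 6.5). A gene under the background level may still be expressed, but the size of its difference is then less certain. The array control probe sets for GAPDH read 0.3, 0.4 and 0.6 log2 units higher at the 3′ end than at the 5′ end in fibroblasts, isolate 1 and isolate 2.

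Across the 43 genes, the HIF and hypoxia-induced genes were lower in GREL cells than in fibroblasts, most glycolytic enzymes were slightly lower, and 3 of the 4 pentose phosphate enzymes were higher. The subunits of pyruvate dehydrogenase were higher too by their brightest probe sets, but averaged over all probe sets PDHA1 differed by 0.013 and PDHB by -0.017. The further probe sets of PDHA1 and PDHB were dim, and DLAT differed by 0.8 in the same average. Both isolates were over 2-fold below the fibroblasts in 11 of the 43, where 4.78% of all named genes were, and over 2-fold above them in 0, against 5.8% of all named genes. Of the 11, 7 were HIF or hypoxia-induced genes (EPAS1, HIF1A, BNIP3, DDIT4, VEGFA, ADM and BNIP3L), and the others were PFKFB3, ALDOC, PKM and GBE1. Over 1.5-fold lower in both isolates were 18 genes (11.0% of all named genes) and over 1.5-fold higher 4 (16.3%). Over 3-fold lower in both isolates were 6 genes, PFKFB3, BNIP3, DDIT4, VEGFA, EPAS1 and ADM, against 2.38% of all named genes. By any amount, 29 of the 43 were lower in both isolates (33.5% of all named genes) and 8 were higher in both (41.6%), while in 6 the isolates lay on either side of the fibroblasts or 1 of them was level with them. The median log2 difference, GREL mean minus fibroblasts, was -0.5 for the 43 genes and 0.05 for all named genes. Without isolate 1 there were 2 genes over 2-fold higher (DLAT and RPIA) and 11 over 2-fold lower. With genes below the background level on every array left out, 23 genes remained. Of the 23, 7 were over 2-fold lower, the HIF and hypoxia-induced genes named above. Of these, EPAS1, BNIP3, DDIT4, VEGFA and ADM exceeded that level on the fibroblast array only. They were kept because they were bright in fibroblasts, so the count adds no support.

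No gene of the 43 passed limma at an adjusted p under 0.05, and 0.0% of the probe sets on the array did in either direction. At an unadjusted p under 0.05 in limma, in either direction, 18 of the 43 genes passed, beside 2186 of the 9155 named genes. With a robust prior in limma 0 of the 43 passed as higher, where 3.22% of all named genes did, and 5 passed as lower, where 2.61% did, and these 5 were HK1, ALDOA, PGK1, PDK3 and ARNT, in which the isolates had the same rounded value. The spread in that fit came from the 2 isolates alone, with the same spread taken to hold for the 1 fibroblast culture. The words lower and higher below therefore describe these 3 cultures. In bulk RNA, fewer cells that express a gene and less RNA of it per cell cannot be told apart.

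**Figure D1:**
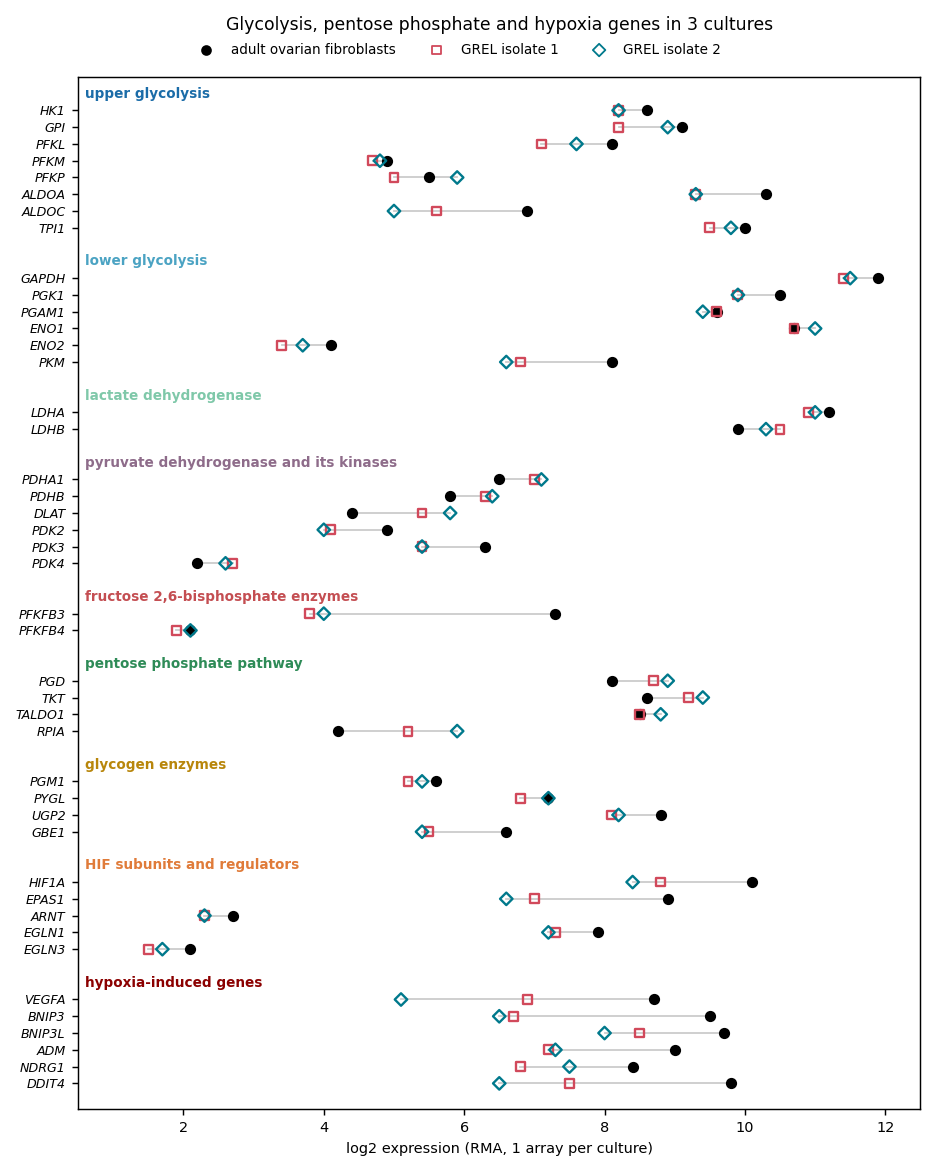
RMA log2 expression (horizontal axis) of the 43 genes by role, with 1 array for each of adult ovarian fibroblasts (filled circles), GREL isolate 1 (open squares) and GREL isolate 2 (open diamonds), with a grey line from the lowest to the highest value. In all 11 HIF and hypoxia-induced genes both isolates lie below the fibroblasts (33.5% of all named genes), and in PGD, TKT and RPIA both lie above (41.6%).

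The 6 hypoxia-induced genes had the lowest median of the groups by role, a log2 difference of -2.23, although single genes of other groups, such as PFKFB3 and EPAS1, lay lower than some of the 6. Each was lower in both isolates (33.5% of all named genes), and 5 of the 6 by over 2-fold in both (4.78%). BNIP3, a mitochondrial protein that promotes the removal of mitochondria, read 9.5 in fibroblasts, against 6.7 in isolate 1 and 6.5 in isolate 2, a difference of -2.90 (standard error, SE, of 0.142 in limma, limma adjusted p = 0.182). This is 6.96-fold and 8.0-fold lower, and the isolates differed from each other by only 0.2. Its relative BNIP3L, which has the same role, read 9.7 in fibroblasts, against 8.5 in isolate 1 and 8.0 in isolate 2 (difference -1.45, SE 0.349, limma adjusted p = 0.286).

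DDIT4, an inhibitor of mTOR signalling induced by stress and low oxygen, read 9.8 in fibroblasts, against 7.5 in isolate 1 and 6.5 in isolate 2 (difference -2.80, SE 0.697, limma adjusted p = 0.286). VEGFA, the growth factor that directs blood vessels, read 8.7 in fibroblasts, against 6.9 in isolate 1 and 5.1 in isolate 2 (difference -2.70, SE 1.254, limma adjusted p = 0.392). In VEGFA the isolates themselves were 1.8 log2 units apart, which is as large as the difference between isolate 1 and the fibroblasts. The 3.48-fold and 12.1-fold lower values are therefore poorly determined, while their direction was the same in both isolates. ADM, the vasodilator peptide adrenomedullin, read 9.0 in fibroblasts, against 7.2 in isolate 1 and 7.3 in isolate 2 (difference -1.75, SE 0.075, limma adjusted p = 0.182). NDRG1, a differentiation-related protein that low oxygen induces, read 8.4 in fibroblasts, against 6.8 in isolate 1 and 7.5 in isolate 2, so that isolate 2 did not reach 2-fold (difference -1.25, SE 0.488, limma adjusted p = 0.361). In fibroblasts all 6 genes exceeded the background level. In isolate 1 only BNIP3L did, and in isolate 2 BNIP3L and NDRG1.

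Of the HIF subunits, EPAS1 (HIF-2 alpha) read 8.9 in fibroblasts, against 7.0 in isolate 1 and 6.6 in isolate 2, 3.73-fold and 4.92-fold lower (difference -2.10, SE 0.28, limma adjusted p = 0.2). HIF1A read 10.1 in fibroblasts, against 8.8 in isolate 1 and 8.4 in isolate 2, 2.46-fold and 3.25-fold lower (difference -1.50, SE 0.28, limma adjusted p = 0.255), and stayed above the background level on all 3 arrays. Their partner ARNT was dim, with 2.7 in fibroblasts and 2.3 in each isolate, a range in which a wide difference could not show.

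The prolyl hydroxylase EGLN1, which marks HIF subunits for breakdown, read 7.9 in fibroblasts, against 7.3 in isolate 1 and 7.2 in isolate 2 (difference -0.65, SE 0.075, limma adjusted p = 0.2). EGLN3, the hydroxylase most strongly induced by low oxygen, was near the bottom of the range, with 2.1 in fibroblasts, 1.5 in isolate 1 and 1.7 in isolate 2. All 5 measured genes of this group were lower in both isolates (33.5% of all named genes), with a median difference of -0.65.

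**Figure D2:**
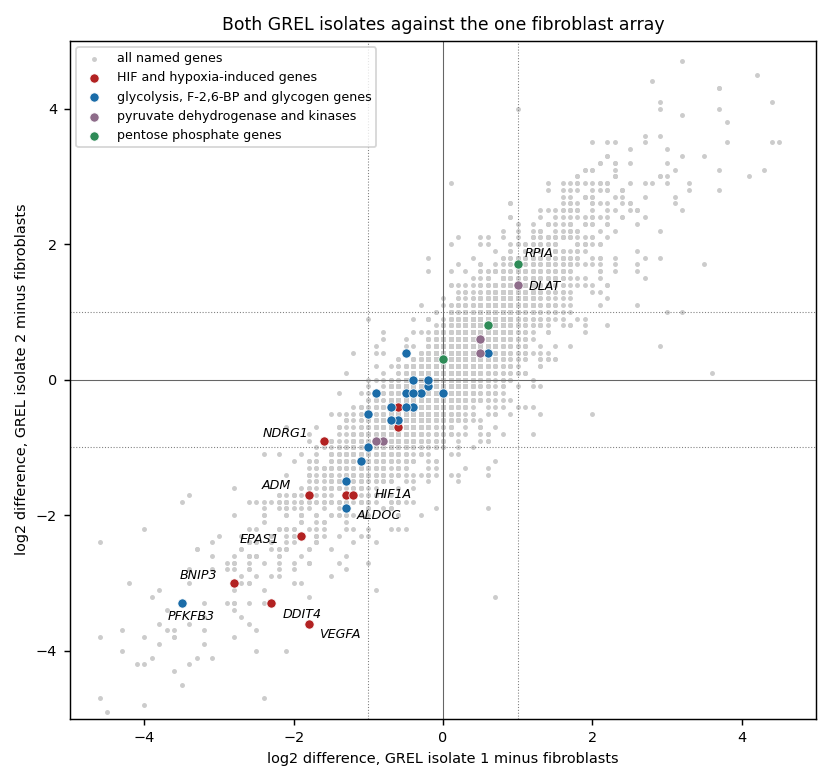
Log2 difference from the fibroblasts in GREL isolate 1 (horizontal axis) and in isolate 2 (vertical axis) for all named genes (grey, 9 of which lie outside the axes) and for the 43 genes (coloured by role). Dotted lines mark 2-fold, and both axes share the 1 fibroblast array, so part of the diagonal spread is that array's own. VEGFA and DDIT4 lie below the diagonal (isolate 2 lower), and PFKFB3 and BNIP3 close to it.

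The remaining genes known to be induced by low oxygen were counted in a list of 46, of which 31 were measured. Of the 31, 8 were over 2-fold lower in both isolates (4.78% of all named genes) and 1 over 2-fold higher (5.8%). By any amount 19 were lower in both (33.5% of all named genes) and 7 higher (41.6%). The list's median difference was -0.5. SLC16A3, the exporter of lactate, read 7.1 in fibroblasts, against 4.9 in isolate 1 and 5.4 in isolate 2. PLOD1, a lysyl hydroxylase of collagen, read 8.6 in fibroblasts, against 7.1 in isolate 1 and 6.6 in isolate 2. In the other direction TF, the iron carrier transferrin, read 4.2 in fibroblasts, against 7.1 in isolate 1 and 6.0 in isolate 2. SLC2A1, the main glucose transporter of most cultured cells and picked after its values were seen, read 6.5 in fibroblasts, against 5.1 in isolate 1 and 4.9 in isolate 2. Genes of the list with isolates on either side of the fibroblasts included PLOD2, another lysyl hydroxylase, with 9.0 in fibroblasts, 9.2 in isolate 1 and 8.7 in isolate 2, and FAM162A, a mitochondrial protein, with 8.1, 7.9 and 8.4, both also picked after their values were seen. PLOD1, P4HA1 and other collagen-modifying genes of this list are also genes of stromal matrix, and the stromal markers too were lower in the isolates. Summed on the linear scale, the 13 stromal markers gave 13906 for fibroblasts, 9481 for isolate 1 and 6115 for isolate 2, and their part in the result was not tested. Of the 4 measured genes that further act on HIF (EGLN2, CUL2, ELOC and ARNT2), 0 were over 2-fold different in both isolates. Among all named genes 5.8% were higher and 4.78% lower by this measure. ELOC, a subunit of the ligase that tags HIF for breakdown, read 8.3, 8.7 and 8.8, and EGLN2, a prolyl hydroxylase, read 6.9, 6.8 and 7.0, both picked after their values were seen.

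The 16 measured enzymes from glucose to lactate differed less than the hypoxia genes. Of the 16, 12 were lower in both isolates (33.5% of all named genes) and 1, LDHB, was higher in both (41.6%), and the median difference was -0.43. Over 2-fold lower in both isolates were 2 genes, ALDOC and PKM (4.78% of all named genes), and ALDOA was at exactly 2-fold in both.

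At the entry to the pathway HK1, the hexokinase of most tissues, read 8.6 in fibroblasts and 8.2 in each isolate. GPI, which turns glucose 6-phosphate into fructose 6-phosphate, read 9.1 in fibroblasts, against 8.2 in isolate 1 and 8.9 in isolate 2. For GPI the gap between the isolates was wider than the distance of isolate 2 from the fibroblasts.

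The phosphofructokinases carry out the committed step, and their 3 subunit genes differed unequally. The liver type PFKL read 8.1 in fibroblasts, against 7.1 in isolate 1 and 7.6 in isolate 2. In the same order the muscle type PFKM read 4.9, 4.7 and 4.8 and the platelet type PFKP 5.5, 5.0 and 5.9, for PFKP with the isolates on either side of the fibroblasts. Further, dim probe sets of PFKM gave differences of 0.15 and 0.0.

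PFKFB3 makes fructose 2,6-bisphosphate, the strongest activator of phosphofructokinase, and by its brightest probe set had the most negative difference of the 43 genes. It read 7.3 in fibroblasts, against 3.8 in isolate 1 and 4.0 in isolate 2, 11.3-fold and 9.85-fold lower (difference -3.40, SE 0.142, limma adjusted p = 0.182). All 3 values of PFKFB3 lay below the background level, but its fibroblast value exceeded the 90th percentile for genes of other organs (5.5), and its isolate values did not, so the size of the difference is uncertain. A pair of further, dimmer probe sets of PFKFB3 gave differences of -0.7 and -0.15, with no value above 2.4. Averaged over its probe sets PFKFB3 differed by -1.42, and by the same measure DDIT4 (-2.80), VEGFA (-2.28), BNIP3 (-2.18), EPAS1 (-1.80), ADM (-1.75), ALDOC (-1.60), HIF1A (-1.50) and BNIP3L (-1.45) were lower. PFKFB4, its relative, read 2.1 in fibroblasts, against 1.9 in isolate 1 and 2.1 in isolate 2.

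Of the aldolases, which split fructose 1,6-bisphosphate, ALDOA read 10.3 in fibroblasts and 9.3 in each isolate (difference -1.0, SE 0.027, limma adjusted p = 0.182). ALDOC, the brain type, read 6.9 in fibroblasts, against 5.6 in isolate 1 and 5.0 in isolate 2 (difference -1.60, SE 0.419, limma adjusted p = 0.286). The small SE of ALDOA rests on 2 isolates with an identical rounded value, so it understates the spread. ALDOC lay below the background level on every array, so the size of its difference is less certain. TPI1, which interconverts the 2 triose phosphates, read 10.0 in fibroblasts, against 9.5 in isolate 1 and 9.8 in isolate 2.

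Further down the pathway GAPDH, the dehydrogenase often used as a reference gene, read 11.9 in fibroblasts, against 11.4 in isolate 1 and 11.5 in isolate 2. The 3 array control probe sets of GAPDH gave mean differences of -0.2, -0.4 and -0.45, so the gene used for scaling in many assays was itself slightly lower in the isolates by all 4 probe sets. PGK1, the first enzyme to make ATP, read 10.5 in fibroblasts and 9.9 in each isolate (difference -0.60, SE 0.027, limma adjusted p = 0.182), again with isolates that round alike.

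PGAM1, phosphoglycerate mutase, read 9.6 in fibroblasts, against 9.6 in isolate 1 and 9.4 in isolate 2, and ENO1, the ubiquitous enolase, read 10.7, 10.7 and 11.0 in the same order. ENO2, the neuronal enolase, read 4.1 in fibroblasts, against 3.4 in isolate 1 and 3.7 in isolate 2. PKM, pyruvate kinase, read 8.1 in fibroblasts, against 6.8 in isolate 1 and 6.6 in isolate 2, 2.46-fold and 2.83-fold lower (difference -1.40, SE 0.142, limma adjusted p = 0.198). Thus PKM was over 2-fold lower in the isolates while ENO1, which acts just before it, was level or higher. Which splice forms of PKM its probe set reads was not examined.

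The lactate dehydrogenase subunits went in opposite directions by a small amount. LDHA, the subunit favouring lactate formation, read 11.2 in fibroblasts, against 10.9 in isolate 1 and 11.0 in isolate 2, and LDHB, the heart type subunit, read 9.9, 10.5 and 10.3. The difference of LDHA minus that of LDHB was -0.9 in isolate 1 and -0.6 in isolate 2, and both genes had a limma adjusted p = 0.286. Further probe sets of LDHA gave -0.85 and 0.05, so the sign of its mean difference depends on the probe set.

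The median difference of 22 measured genes of glycolysis and gluconeogenesis outside the 43 was -0.2. Of the 22, 1 was over 2-fold higher in both isolates (5.8% of all named genes) and 1 over 2-fold lower (4.78%). These were ENO3, the muscle enolase, with 2.9 in fibroblasts, 4.5 in isolate 1 and 5.1 in isolate 2, and FBP2, the muscle fructose 1,6-bisphosphatase, with 3.4, 2.1 and 2.2. None of the 22 lay above the background level on any array.

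**Figure D3:**
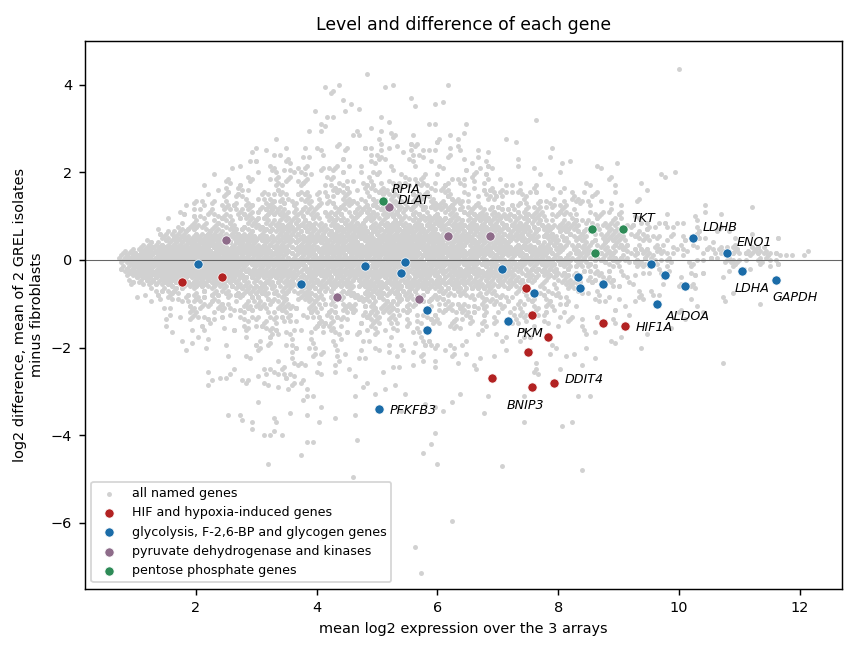
Mean log2 expression over the 3 arrays (horizontal axis) and GREL mean minus fibroblasts in log2 units (vertical axis, 2 isolates against 1 culture) for all named genes (grey) and the 43 genes (coloured by role). Among the bright glycolytic genes, LDHB lies at 0.5, ENO1 at 0.15, LDHA at -0.25, GAPDH at -0.45, PGK1 at -0.60 and ALDOA at -1.0. BNIP3 and DDIT4 lie at -2.90 and -2.80.

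The catalytic subunits of pyruvate dehydrogenase were higher in both isolates, and its kinases PDK2 and PDK3 were lower in both. PDHA1, the alpha subunit of the first enzyme, read 6.5 in fibroblasts, against 7.0 in isolate 1 and 7.1 in isolate 2, and PDHB, its beta subunit, read 5.8, 6.3 and 6.4. DLAT, the acetyltransferase core, read 4.4 in fibroblasts, against 5.4 in isolate 1 and 5.8 in isolate 2 (difference 1.20, SE 0.28, limma adjusted p = 0.282), at exactly 2-fold in isolate 1.

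PDK2 and PDK3 phosphorylate and switch off the complex. PDK2 read 4.9 in fibroblasts, against 4.1 in isolate 1 and 4.0 in isolate 2 (difference -0.85, SE 0.075, limma adjusted p = 0.184), and PDK3 read 6.3 in fibroblasts and 5.4 in each isolate (difference -0.90, SE 0.027, limma adjusted p = 0.182). PDK4, the kinase of fasting, read 2.2 in fibroblasts, against 2.7 in isolate 1 and 2.6 in isolate 2, near the bottom of the range, and its further probe sets gave 0.65 and -0.05. All 6 genes of this group lay below the background level on every array. In DLAT a pair of further probe sets gave 0.8 and 0.4, in the same direction. In PDHB the further probe sets gave -0.5 and -0.1, and in PDHA1 3 further ones gave -0.3, -0.1 and -0.1, all with values no higher than 2.7. Averaged over all probe sets of each gene the median of the group was -0.002, against 0.5 with 1 probe set per gene. The higher values of PDHA1 and PDHB thus rest on the brightest probe set of each.

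Of 8 further genes of pyruvate import and of the complex, 6 were higher in both isolates and 0 lower in both (41.6% and 33.5% of all named genes). Their median difference was 0.375, and 0 of the 8 were over 2-fold higher (5.8% of all named genes) or lower (4.78%) in both. Of 23 measured subunits of oxidative phosphorylation, the mitochondrial process that uses what the complex makes, 17 were higher in both isolates (41.6% of all named genes). A further 2 were lower in both (33.5%), and the median difference was 0.35. Over 2-fold different were 0, where 5.8% of all named genes were higher and 4.78% lower.

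The pentose phosphate enzymes were higher in the isolates or level, with a median difference of 0.7, and 3 of the 4 were over 1.5-fold higher in both (16.3% of all named genes). PGD, which makes NADPH and ribulose 5-phosphate, read 8.1 in fibroblasts, against 8.7 in isolate 1 and 8.9 in isolate 2 (difference 0.70, SE 0.142, limma adjusted p = 0.261). TKT, the transketolase that links the pathway back to glycolysis, read 8.6 in fibroblasts, against 9.2 in isolate 1 and 9.4 in isolate 2, with the same difference and the same limma adjusted p = 0.261. RPIA, which makes ribose 5-phosphate, read 4.2 in fibroblasts, against 5.2 in isolate 1 and 5.9 in isolate 2, 2.0-fold and 3.25-fold higher (difference 1.35, SE 0.488, limma adjusted p = 0.336). A second probe set of RPIA, at 2.9, 3.9 and 4.6 in the same order, gave the same 2 differences. Both probe sets of RPIA lay below the background level on every array, so the fold sizes are less certain. TALDO1, the transaldolase, read 8.5 in fibroblasts, against 8.5 in isolate 1 and 8.8 in isolate 2.

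Of 6 further measured genes of the pathway, 4 were higher in both isolates (41.6% of all named genes) and 1 was lower in both (33.5%). Over 2-fold different in both were 0 of the 6, where 5.8% of all named genes were higher and 4.78% lower. PGLS, the lactonase, read 7.0 in fibroblasts, against 7.5 in isolate 1 and 7.8 in isolate 2, picked after its values were seen. Genes of the cell cycle were also higher. Of 20 measured, 18 were over 2-fold higher in both isolates (5.8% of all named genes). The summed linear signal of the 20 was 667 in the fibroblasts, 2283 in isolate 1 and 4208 in isolate 2. In PGD, TKT, RPIA and TALDO1 too isolate 2 was the higher of the isolates. This order was not particular to them, since it also held in GPI, PFKP, PFKL, TPI1, ENO1 and DLAT. In others, such as LDHB and VEGFA, isolate 2 was the lower. The part of cell division in the pentose phosphate values was not tested.

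**Figure D4:**
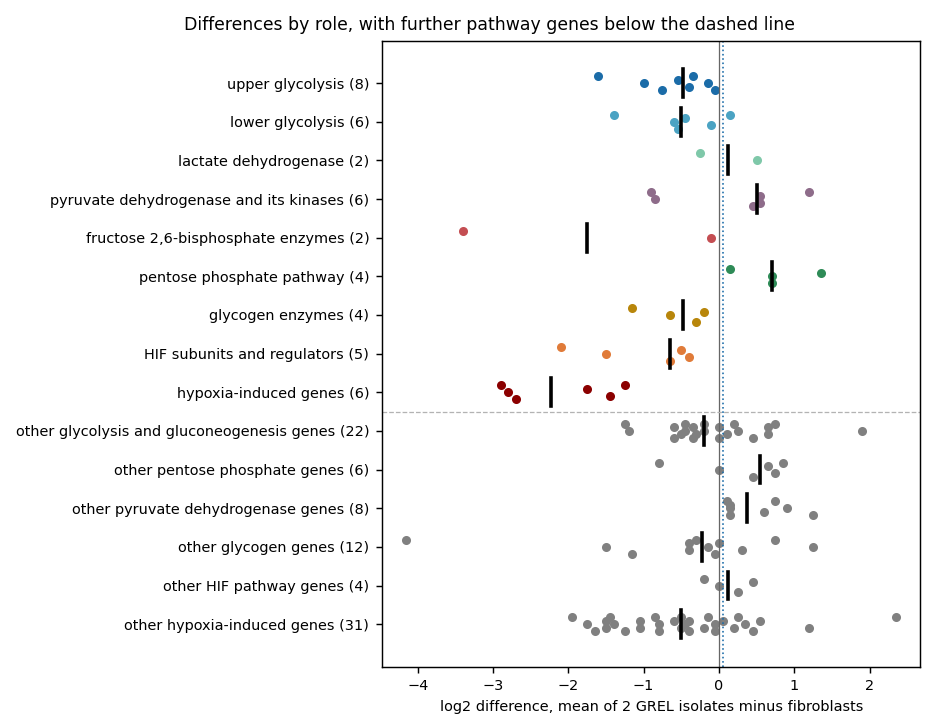
GREL mean minus fibroblasts in log2 units (horizontal axis, 2 isolates against 1 culture), each point being 1 measured gene, sorted by role, with the number of genes in brackets, the median of each group as a black bar and the median of all named genes as a dotted line at 0.05. Groups of the 43 genes stand above the dashed line and further pathway genes below it. The medians run from -2.23 for the hypoxia-induced genes to 0.7 for the pentose phosphate enzymes.

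The glycogen enzymes were lower or level in the isolates. All but UGP2 lay below the background level on every array, so the sizes of their differences are less certain. GBE1, which adds the branches of glycogen, read 6.6 in fibroblasts, against 5.5 in isolate 1 and 5.4 in isolate 2 (difference -1.15, SE 0.075, limma adjusted p = 0.182). UGP2, which makes the UDP-glucose that glycogen is built from, read 8.8 in fibroblasts, against 8.1 in isolate 1 and 8.2 in isolate 2 (difference -0.65, SE 0.075, limma adjusted p = 0.2). PYGL, the liver type phosphorylase that releases glucose from glycogen, read 7.2 in fibroblasts, against 6.8 in isolate 1 and 7.2 in isolate 2, and a second probe set gave -0.6 (6.1, 5.0 and 6.0). PGM1, which joins glycogen to glycolysis, read 5.6, 5.2 and 5.4, and a second, dimmer probe set of it had a difference of 0.15.

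Of 12 further measured glycogen genes 1 was over 2-fold lower in both isolates (4.78% of all named genes) and 1 over 2-fold higher (5.8%). PPP1R3C, which brings a phosphatase to glycogen and favours its synthesis, read 6.6 in fibroblasts, against 2.5 in isolate 1 and 2.4 in isolate 2, 17.1-fold and 18.4-fold lower (limma adjusted p = 0.182). In both isolates it lay under the 90th percentile for genes of other organs, so the size is uncertain. PHKA2, a subunit of phosphorylase kinase, read 1.7 in fibroblasts, against 2.9 in isolate 1 and 3.0 in isolate 2, dim on all 3 arrays.

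Of the 43 genes 14 had more than 1 probe set, with 24 further probe sets in all, and 14 of the 24 had a difference of the same sign as the probe set used. Of the 24, 23 lay below the background level on every array. In the hypoxia and HIF genes the further probe sets agreed in direction. BNIP3 had one with 7.9 in fibroblasts, 5.0 in isolate 1 and 4.5 in isolate 2 (difference -3.15) and a dim one with a difference of -0.5. VEGFA had a second with 5.1 in fibroblasts, 3.8 in isolate 1 and 2.7 in isolate 2 (-1.85), in which isolate 2 was again the lower. For EPAS1 the second gave -1.50, and for EGLN1 the others gave -0.75 and -1.0.

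**Figure D5:**
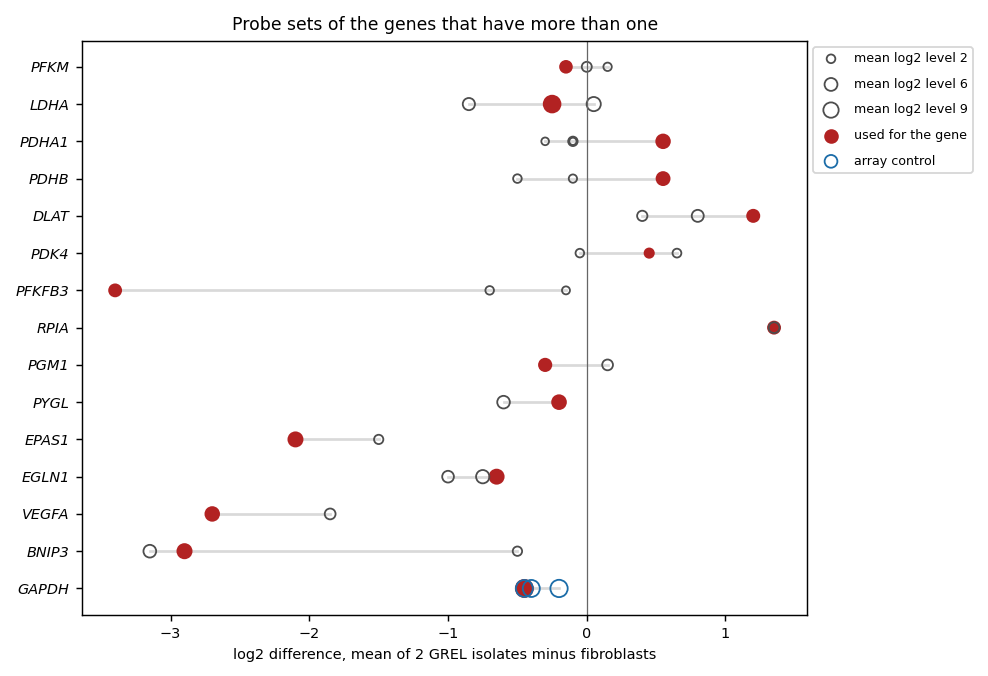
GREL mean minus fibroblasts in log2 units (horizontal axis, 2 isolates against 1 culture) for every probe set of the 14 genes with more than one and of GAPDH with its array controls, where the area of a circle grows with the mean log2 level, filled circles are the probe sets used and blue circles the array controls. All probe sets of EPAS1, EGLN1, VEGFA and BNIP3 lie below 0 and both of RPIA lie at 1.35, whereas those of PDHA1 and PDHB lie on either side of 0.

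The isolates themselves lay close together in most of these genes. In 31 of the 43 both isolates differed from the fibroblasts in the same direction by more than they differed from each other, where 50.5% of all named genes did. The widest gap between the isolates was in VEGFA (1.8), followed by DDIT4 (1.0) and PFKFB3's neighbour in the pathway PFKP (0.9). Over all 24016 probe sets, which are no replicates of one another, Pearson's r of the isolates with each other was 0.984, while isolate 1 had 0.95 and isolate 2 had 0.934 with the fibroblasts.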

How the data were processed

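Total RNA (250 ng per culture, per the labels) from 2 GREL cell isolates and 1 fibroblast culture was labelled with a 3′ IVT Express kit and hybridized to 1 array per culture. RMA background subtraction, quantile normalization and the log2 step were run by the authors in Partek (6.5 by the submitters' processing notes). The deposited log2 values are rounded to steps of 0.1, with no detection calls. Rounding makes the isolates identical in 3513 probe sets. The table held 24128 probe sets, of which 112 array controls were left out of the tests. A genome build is not given in the sources used here. Of the 24016 probe sets tested, 13292 carried 1 symbol in the platform annotation, 86 several and 10638 none here, and the gene identifiers of all 43 genes were found in a current RefSeq table of cattle. The genes and lists were chosen with earlier results of these data known.

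The contrast of GREL cells and fibroblasts was fitted by limma 3.58.1 in R 4.3.3 (lmFit, eBayes, 1 residual degree of freedom) over all probe sets, with Benjamini-Hochberg adjustment. Counts at over 1.5-fold, 2-fold and 3-fold required both isolates to pass in the same direction. Tables were made in Python 3.11.15. The fit was tested on simulated data. Each isolate is said to come from its own fetus, and p-values measure the spread between them only. The number of arrays limits the precision. Every gene of the 43 is named, with test values for those over 1.5-fold in both isolates. Of the further pathway lists, up to 2 highest and 2 lowest genes over 2-fold are named, and exceptions are marked in the text.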

Additional observations from a re-analysis of the deposited data

How the results depend on the processing

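No paired analysis was possible because the single fibroblast culture has no counterpart for either isolate. No gene of the 43 passed under an intensity trend, arrays centred on the median, renewed quantile normalization or removal of dim probe sets. No tested gene passed under the methods' one-way ANOVA. That test left out genes whose isolates had the same rounded value (HK1, ALDOA, PGK1, PDK3 and ARNT). No probe set on the array passed in the main fit either, so a lack of calls says little about these genes. With a robust prior 5 passed, all lower in GREL cells. The count over 2-fold lower, 11, was 7 of the 23 genes left when those below the background level on all arrays were dropped. That filter keeps genes bright in fibroblasts alone, EPAS1, BNIP3, DDIT4, VEGFA and ADM among them. The count was 18 at 1.5-fold (11.0% of all named genes) and 6 at 3-fold, and lay between 11 and 12 when either isolate was left out. The count over 2-fold higher, 0, was 4 at 1.5-fold, 2 when values of exactly 2-fold were included (DLAT and RPIA, a choice made after seeing the data, which also adds ALDOA to the lower genes), and 0 to 2 when either isolate was left out. The median difference of the 43 genes ran from -0.6 to -0.4 over all alternatives. With background set at the 95th percentile, 15 of the 43 genes exceeded it on every array and 20 on none, and with the 90th percentile 28 and 7 did. Of the 9155 named genes, 7866 did not exceed the 95th percentile on any array. Rounded values and a single fibroblast array limit every size given here, and most of all those of the dim genes.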
